A study of Mus musculus with 6 samples.

Results

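The hormone receptors of bone cells were followed on 6 Affymetrix Mouse Genome 430 2.0 arrays, 3 of control and 3 of ascorbic acid (AA)-treated MC3T3-E1 cells, a mouse calvarial pre-osteoblast line used here as its subclone 4. The 10 genes were Pth1r, Pthlh, Vdr, Cyp24a1, Nr3c1, Esr1, Ghr, Lepr, Rxra and Thra, and a probe set was taken as a member whenever the platform annotation named one of these symbols for it, alone or with others. This gave 27 of 45037 probe sets, covering 9 of the 10 genes. All 27 carried a single symbol, and Pthlh is named only. Both groups were grown in 6-well plates in alpha-MEM with 10% fetal bovine serum and harvested at day 5. The control cells received no addition, and the AA cells received 50 µg AA (per ml in the study's methods) with fresh medium every 2nd day. A single clone of 1 line was studied, the serum was not stated to be stripped of hormones, and no hormone treatment is named for either group, so the arrays show transcript levels and not a hormone response. The labels do not say whether the triplicates were separate wells or separate experiments, so p-values measure the spread between these samples only.

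Bone-forming cells read circulating hormones through 2 kinds of protein. Membrane receptors include PTH1R, a G protein-coupled receptor shared by parathyroid hormone and the PTH-related peptide encoded by Pthlh, and the cytokine-type receptors GHR and LEPR for growth hormone and leptin, which signal through the kinase JAK2. Nuclear receptors are transcription factors switched by their ligand: VDR for vitamin D, the glucocorticoid receptor NR3C1, the estrogen receptor ESR1 and the thyroid hormone receptor encoded by Thra, with RXRA serving as the dimer partner of VDR and of the thyroid hormone receptor. CYP24A1 degrades active vitamin D, and its gene is among the best known VDR targets. AA is a cofactor of collagen hydroxylation and lets MC3T3-E1 cells lay down matrix and differentiate.

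RefSeq promoter windows (build GRCm38.p6, 250 bases before to 50 bases after a start) were found for 7 of the 10 genes, 13 windows in all. Cyp24a1, Nr3c1 and Thra are named only. The windows at the most upstream start are shown for Pth1r, Ghr and Lepr, whose transcripts changed by the test described further on, and for Leprot, a gene next to Lepr that changed too. They read 5′ to 3′ on the gene's strand, and capitals mark matches, on either strand, to 4 motifs: the GC box GGGCGG, the nuclear receptor half-site AGGTCA, the glucocorticoid receptor half-site AGAACA and the TATA box TATAAA.
Pth1r, chr9:110747096-110747395, minus strand: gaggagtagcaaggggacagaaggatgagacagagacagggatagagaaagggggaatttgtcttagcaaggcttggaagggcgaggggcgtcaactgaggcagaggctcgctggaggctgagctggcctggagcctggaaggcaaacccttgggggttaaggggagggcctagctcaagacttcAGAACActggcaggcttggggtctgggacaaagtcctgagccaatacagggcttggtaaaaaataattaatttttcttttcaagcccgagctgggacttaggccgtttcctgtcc
Ghr, chr15:3583303-3583602, minus strand: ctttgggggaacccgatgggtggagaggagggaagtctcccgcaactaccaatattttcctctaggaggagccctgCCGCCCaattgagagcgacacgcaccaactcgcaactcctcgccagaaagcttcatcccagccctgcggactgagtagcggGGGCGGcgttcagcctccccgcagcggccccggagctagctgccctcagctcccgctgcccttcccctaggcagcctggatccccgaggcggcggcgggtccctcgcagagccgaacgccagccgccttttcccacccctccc
Lepr, chr4:101717157-101717456, plus strand: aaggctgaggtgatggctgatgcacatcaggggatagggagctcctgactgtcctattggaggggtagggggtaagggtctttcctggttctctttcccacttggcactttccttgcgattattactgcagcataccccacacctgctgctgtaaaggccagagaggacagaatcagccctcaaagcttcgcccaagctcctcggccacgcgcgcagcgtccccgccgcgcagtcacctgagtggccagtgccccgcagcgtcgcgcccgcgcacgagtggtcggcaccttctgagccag
Leprot, chr4:101647533-101647832, plus strand: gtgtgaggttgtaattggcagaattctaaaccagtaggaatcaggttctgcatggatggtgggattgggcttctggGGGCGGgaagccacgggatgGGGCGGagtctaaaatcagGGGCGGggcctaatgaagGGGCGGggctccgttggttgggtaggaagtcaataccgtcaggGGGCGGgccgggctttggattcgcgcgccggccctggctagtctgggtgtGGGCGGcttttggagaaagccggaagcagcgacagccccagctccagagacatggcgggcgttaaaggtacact
The windows differed in these letters. That of Leprot held 6 GC boxes, that of Ghr held 2, and those of Pth1r and Lepr held none. Over all 32851 windows of this length, 35.7% held a GC box. The Pth1r window held 1 glucocorticoid receptor half-site, a motif present in 19.0% of all windows. The other starts of the same genes differed again, since the Pth1r windows at chr9:110743637-110743936 and chr9:110742561-110742860 held 1 and 4 GC boxes and the 2nd Ghr window held the TATA box, which 13.6% of all windows hold. The nuclear receptor half-site, in 16.3% of all windows, was found among the members only in the Rxra window at chr2:27709042-27709341, with 2 matches. These are matches of letters in short windows, and the arrays did not tell which start was used.

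Signals are given in the arrays' linear units as deposited, after scaling to the same trimmed mean on every array, and are compared only within a probe set. Differences are AA minus control on the log2 scale after quantile normalization, from a limma model that also held a term for the replicate number (the block). P-values were adjusted (Benjamini-Hochberg) across the 45037 probe sets, and 0.05 was the threshold. Of the 27 member probe sets, 3 rose, 4 fell and 20 did not pass, beside 2.71% of all probe sets that rose and 2.50% that fell. The 3 that rose belonged to Pth1r and Lepr, and the 4 that fell to Ghr, Nr3c1 and Thra. Of the members, 17 lay above the median signal of all probe sets, and 2 of these rose and 4 fell, beside 5.23% and 4.83% of all probe sets above that median. Lepr 1456156_at, 1 of the 2 that rose, lay above the median log2 signal of 3.93 only through AA. Its mean log2 signal was 3.01 in control and 4.95 in AA, so its place among the 17 came from the change itself. Taking 1 probe set per gene, the one with the highest mean signal, 2 of 9 genes rose and 3 fell, beside 4.06% and 3.83% of 18193 genes. The median log2 difference was -0.16 over the member probe sets and -0.01 over all probe sets. In bulk RNA, fewer cells of a kind and less RNA per cell cannot be told apart. All of these calls rest on letting the spread depend on signal: with a constant prior spread no probe set of the whole array passed, against 2587 higher and 2616 lower at an unadjusted p under 0.05.

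**Figure D1:**
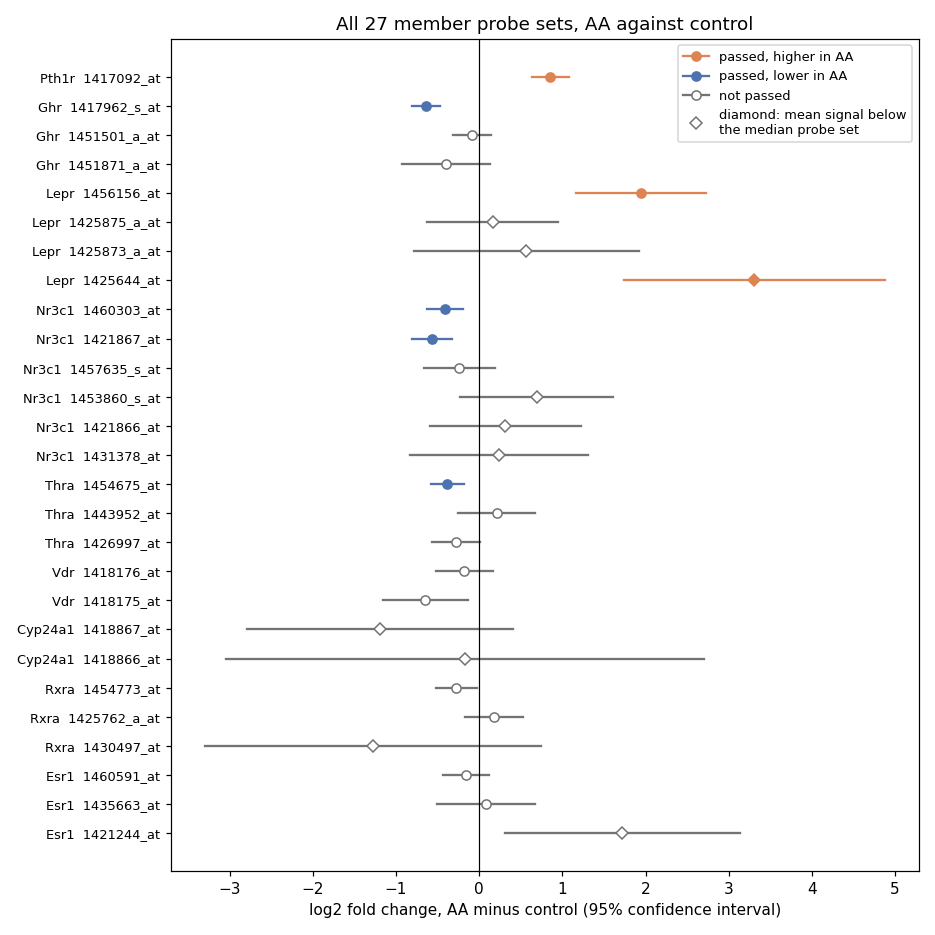
Log2 difference, AA minus control, of each of the 27 member probe sets with its 95% confidence interval from limma with the replicate block. Filled points passed an adjusted p of 0.05, and diamonds are probe sets whose mean signal lay below the median of all probe sets. The 3 filled points right of 0 are Pth1r and Lepr, and the 4 left of 0 are Ghr, Nr3c1 and Thra.

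The libraries were alike in their controls except for 1 array. The ratio of 3′ to 5′ actin control probe sets, a sign of RNA integrity, was 1.79 in control replicate 3 and 1.35 to 1.45 on the other 5 arrays. For the label "osteoblastic", the markers Col1a1, Col1a2, Sp7 and Ibsp from the osteoblast list gave mean control signals of 6052, 7961, 846 and 1631. No detection calls were at hand to say more. Of 13 osteoblast markers listed, 4 were not measured, and 7 of the 9 measured lay above the median signal of all probe sets. Of these 9, 4 rose with AA and none fell, namely Ifitm5, Alpl, Ibsp and Pth1r itself. The summed signal of the 9 ran from 16304 to 19932 in control and from 22453 to 31160 in AA. Markers of other cells moved as well. Of 8 chondrocyte markers Hapln1 and Col2a1 rose (summed signal 397 to 495 in control, 627 to 807 in AA), and of 8 macrophage and osteoclast markers Ctsk and Csf1r rose (1402 to 1521 in control, 2040 to 2541 in AA). Of these 8 macrophage and osteoclast markers, 3 lay above the median signal of all probe sets. Ptprc, a leukocyte marker, and Adgre1, a macrophage marker, are on the same list. They had mean signals of 1.19 and 6.67 in control and 2.79 and 5.18 in AA, below the array medians of 14.9 to 17.7. None of 6 adipocyte or 6 fibroblast and tendon markers passed, while 1 of 6 endothelial markers (Vwf) and 1 of 8 muscle markers (Tagln) fell. No marker was at 0. The part of these shifts in the receptor results was not tested.

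Pth1r rose. Its single probe set, 1417092_at, read 1507, 968 and 681 in control replicates 1, 2 and 3 and 2443, 1762 and 1457 in the AA replicates of the same numbers. The AA cells were higher in all 3 numbered pairs, but the groups overlapped, because AA replicate 3 lay below control replicate 1. The log2 difference was 0.85 ± 0.10 (SE, n = 3 per group), or 1.80-fold, with an adjusted p of 0.00268. This call depended on matching the arrays by replicate number: without the block the adjusted p was 0.118. With the block it held when any replicate number was left out, at log2 differences of 0.73 to 0.97. The array numbered 1 was the highest and that numbered 3 the lowest in both groups. When single arrays were left out without the block, it passed only without control replicate 1 (adjusted p = 0.0209). Without any other array the adjusted p was 0.123 to 0.327. Without control replicate 3, the array with the high actin ratio, and without the block, the log2 difference was 0.57 (adjusted p = 0.266).

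**Figure D2:**
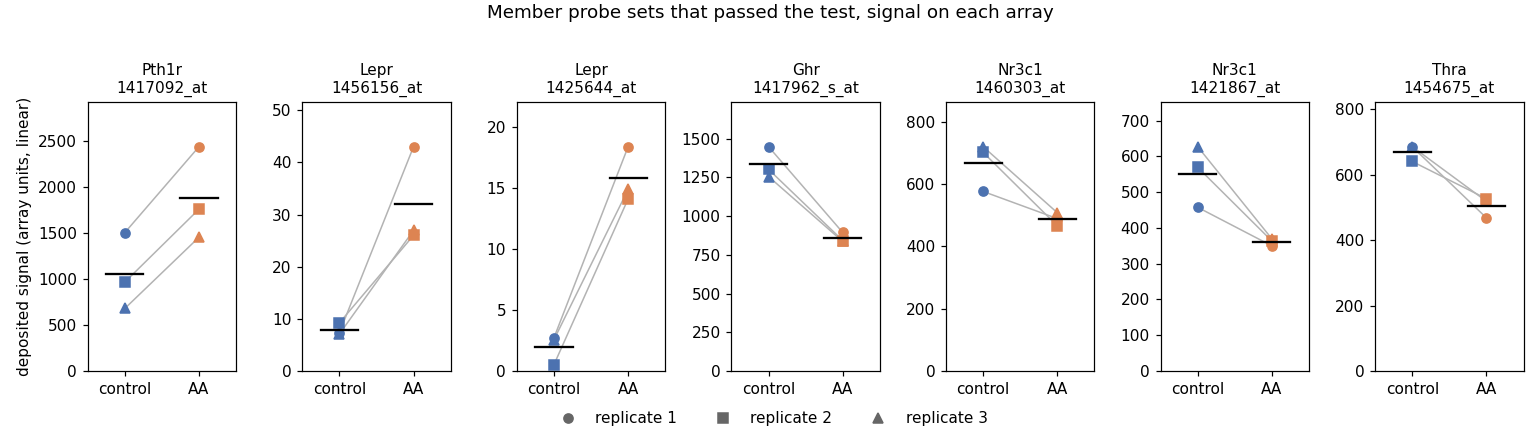
Deposited signal on each array of the 7 member probe sets that passed the test, with control in blue, AA in orange, the replicate number as the symbol, lines joining arrays of the same number and black bars at the group means. Each panel has its own linear axis from 0. The groups overlapped only for Pth1r, where the lines between numbers 1, 2 and 3 run nearly side by side.

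None of the genes listed around PTH1R signalling rose by the test on its brightest probe set. The 36 listed genes held G protein subunits, adenylyl cyclases, phospholipases and protein kinase A subunits. They also held the ligand gene Pth, the receptor gene Pth2r and phosphodiesterases, which break down cAMP. Of these, 34 were measured, and by brightest probe set none rose, 5 fell and 29 did not pass. The median log2 difference was -0.05 beside -0.02 over all genes. Of the 29, Prkaca and Prkar1a each passed on another probe set, 1 of 2 and 1 of 3. Plcb4, a phospholipase C acting below Gq, fell from 1273 ± 239 to 672 ± 114 (SD, n = 3), a log2 difference of -0.91 with an adjusted p of 0.00143. Pde4b, which breaks down cAMP, fell by 1.62 on the log2 scale (adjusted p = 0.00532, and 0.0672 without the block), and Plcb1 fell by 0.70. The kinase A regulatory subunit Prkar2b and the alpha subunit Gnaq of Gq fell by 0.51 and 0.48, calls that were lost with 50 added to every signal (adjusted p 0.0709 and 0.0805). Not every probe set of these 5 genes passed. Plcb4 passed on 2 of 5, Pde4b on 1 of 6 and Plcb1 on 1 of 5. Prkar2b passed on 2 of 3 and Gnaq on 2 of 7. Gnas, which encodes the Gs subunit coupled to PTH1R, gave 4709 in control and 5128 in AA with a log2 difference of 0.02 (adjusted p = 0.924).

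Genes listed as responsive to PTH in bone cells went in both directions. Of 22 measured of 23 listed, 4 rose, 5 fell and 13 did not pass, with a median of 0.13. Those that rose were Tnfrsf11b, which encodes the decoy receptor osteoprotegerin (283 ± 110 to 829 ± 92.0, log2 difference 1.65), the prostaglandin synthase gene Ptgs2 (1.09), and the orphan nuclear receptors Nr4a2 (1.00) and Nr4a3 (1.10). Those that fell included the collagenase gene Mmp13, from 156 ± 2.62 to 45.5 ± 5.80, a log2 difference of -1.77 with an adjusted p of 0.000658. The growth factor gene Igf1 (-1.04), the kinase gene Sik2 (-0.56) and the EGF receptor ligand gene Hbegf (-0.91) fell too, and Wnt4 made up the 5. All probe sets passed for Tnfrsf11b, Mmp13, Igf1 and Hbegf. Nr4a2 passed on 1 of 6, Nr4a3 and Sik2 on 1 of 3 each, and Ptgs2 and Wnt4 on 1 of 2 each.

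Ghr fell. The probe set 1417962_s_at read 1448, 1301 and 1255 in control and 894, 842 and 836 in AA, so that every AA array was below every control array. The log2 difference was -0.64 ± 0.07 (SE), a 1.56-fold decrease, with an adjusted p of 0.00265. The call held without the block (adjusted p = 0.00324) and when any replicate number was left out with the block or any single array without it, at log2 differences from -0.70 to -0.58. The 2 other Ghr probe sets did not pass. Probe set 1451501_a_at read 658, 525 and 505 against 510, 503 and 521. Its log2 difference was -0.09 (95% confidence interval -0.32 to 0.14), an interval that does not include -0.64. The dimmer 1451871_a_at read 46.0, 31.0 and 42.4 against 30.5, 30.0 and 28.7, again with every AA array below every control array. Its log2 difference was -0.40 (95% confidence interval -0.93 to 0.13, adjusted p = 0.427), an interval that includes -0.64. The mouse gene gives both the membrane receptor and a soluble binding protein from the same locus, and the annotation used here does not say which transcript each probe set reads. Averaged over its 3 probe sets, Ghr gave -0.38 with an adjusted p of 0.0790.

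Lepr rose from a low signal. Probe set 1456156_at read 7.36, 9.24 and 7.09 in control and 43.0, 26.0 and 27.0 in AA, and 1425644_at read 2.72, 0.525 and 2.58 in control and 18.4, 14.1 and 14.9 in AA. In both, the groups were separate, and all 3 control arrays lay below their array's median signal. The log2 differences were 1.95 ± 0.34 (SE, adjusted p = 0.0161) and 3.31 ± 0.68 (adjusted p = 0.0310), sizes that depend on how dim signals are treated: with 50 added to every signal they were 0.49 and 0.33, and both still passed. For 1456156_at the adjusted p ran from 0.0221 to 0.0639 when a replicate number was left out with the block (3 fits) or an array without the block (6 fits), passing in 6 of 9 cases, and for 1425644_at it ran from 0.0368 to 0.140, passing in 3 of 9. The other 2 Lepr probe sets did not pass, with overlapping groups. Probe set 1425875_a_at read 14.3, 12.1 and 12.0 against 17.2, 12.4 and 15.2, and 1425873_a_at read 2.72, 8.51 and 2.90 against 5.01, 7.12 and 6.82, with adjusted p of 0.873 and 0.699. Averaged over its 4 probe sets, Lepr gave 1.49 and did not pass (adjusted p = 0.0761). Lepr is spliced into several receptor forms, and the annotation does not assign these probe sets to them. Leprot, the neighbouring gene on chromosome 4, rose on all 3 of its probe sets, and the brightest went from 549 ± 77.1 to 765 ± 44.7 (log2 difference 0.51, adjusted p = 0.0304).

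Around these cytokine-type receptors, 25 of 27 listed signalling genes were measured, of which 3 rose, 2 fell and 20 did not pass, with a median of -0.01. Jak2, the kinase of both receptors, rose from 410 ± 50.4 to 657 ± 183 (log2 difference 0.68, adjusted p = 0.00869, and 0.0614 without the block), with Leprot and Socs1 the other genes that rose. Socs1, a feedback inhibitor of JAK kinases, went from 27.6 ± 5.69 to 53.3 ± 9.25, a log2 difference of 0.95. The genes that fell were both known growth hormone targets. Socs2, the inhibitor induced by growth hormone, fell from 849 ± 85.6 to 537 ± 58.6 (log2 difference -0.64, adjusted p = 0.00323). Igf1 read 1120, 1011 and 729 in control and 406, 438 and 508 in AA on its brightest probe set, a log2 difference of -1.04 with an adjusted p of 0.00864, and fell on all 4 of its probe sets. Stat5a and Stat5b, the transcription factors below JAK2, gave -0.01 and -0.29 and did not pass.

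Nr3c1, the glucocorticoid receptor gene, fell on the 2 brightest of its 6 probe sets. Probe set 1460303_at read 576, 702 and 720 in control and 489, 466 and 508 in AA, and 1421867_at read 458, 569 and 627 in control and 350, 363 and 370 in AA. The groups were separate in both, and control replicate 1 was the lowest control array in each. The log2 differences were -0.41 ± 0.10 (SE, adjusted p = 0.0468) and -0.57 ± 0.10 (adjusted p = 0.0184). These calls were close to the threshold: over the 3 fits without a replicate number and the 6 without an array and without the block, the first was lost in 7 of 9 (adjusted p 0.0140 to 0.269) and the second in 6 of 9 (0.00576 to 0.105). With 50 added to every signal the first was lost (0.0870) and the second was not (0.0494). The 4 other probe sets did not pass. Probe set 1457635_s_at gave -0.24 (adjusted p = 0.573), and 1453860_s_at, 1421866_at and 1431378_at, all below the median signal, gave 0.69, 0.31 and 0.23. Since the mean over the 6 gives each the same weight, it came to 0.00 (adjusted p = 0.997).

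Among 25 listed genes of glucocorticoid metabolism and response, all measured, 3 fell, none rose and 22 did not pass, with a median of -0.25. The metallothionein gene Mt2 fell from 923 ± 88.5 to 429 ± 26.2, a log2 difference of -1.08 (adjusted p = 0.000637). The transcription factor gene Cebpb fell by 0.37 and the pyruvate dehydrogenase kinase gene Pdk4 by 0.44, the latter with an adjusted p of 0.0371 that rose to 0.274 without the block. Fkbp5 and Tsc22d3, both well known direct targets of the receptor, gave log2 differences of 0.09 and -0.30 and did not pass.

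Thra fell on 1 of 3 probe sets. Probe set 1454675_at read 685, 640 and 686 in control and 468, 526 and 519 in AA, with no overlap. The log2 difference was -0.38 ± 0.09 (SE, adjusted p = 0.0428), and the call was lost in all 3 fits without a replicate number and all 6 without an array and without the block (adjusted p 0.0645 to 0.152), under median centring (0.0589) and with 50 added (0.0742). Probe set 1426997_at read 151, 167 and 218 against 143, 133 and 151, a log2 difference of -0.28 (adjusted p = 0.300). Probe set 1443952_at read 105, 222 and 172 against 191, 194 and 157, with the control arrays spanning all the AA values. Averaged over the 3, Thra gave -0.15 (adjusted p = 0.541). The end of Thra overlaps its neighbour Nr1d1, a clock receptor gene, which gave 28.6 ± 6.85 in control and 33.7 ± 6.57 in AA and did not pass. Of 18 measured genes of thyroid hormone transport, deiodination and response, Slc7a5 fell and Me1 rose, and the median was 0.17. Slc7a5, an amino acid transporter that also carries thyroid hormone, went from 2012 ± 121 to 919 ± 60.8, a log2 difference of -1.15 (adjusted p = 0.000378). Me1, the malic enzyme gene, gave 0.52 (adjusted p = 0.0122, and 0.226 without the block).

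Vdr was not shown to change. Probe set 1418176_at read 88.9, 94.5 and 120 in control and 87.5, 88.6 and 85.8 in AA, and 1418175_at read 54.8, 79.6 and 99.7 in control and 51.5, 47.2 and 45.1 in AA. Every AA array lay below every control array in both probe sets, by little in replicate 1 and more in replicate 3. The log2 differences were -0.18 (95% confidence interval -0.53 to 0.16, adjusted p = 0.608) and -0.65 (-1.16 to -0.14, unadjusted p = 0.0186, adjusted p = 0.161). The interval of the latter lay below 0, but the probe set did not pass after adjustment over the whole array. It did pass without replicate 1 (-0.94, adjusted p = 0.0321) and without control replicate 1 and the block (-0.87, adjusted p = 0.0408), and was the only member probe set to pass under an alternative alone. Cyp24a1, the gene that VDR drives, was dim on both probe sets. It read 5.00, 3.60 and 6.60 against 4.00, 0.736 and 3.75 on 1418867_at, and 0.678, 5.65 and 4.93 against 6.32, 8.09 and 0.302 on 1418866_at. These signals were all below the array medians and changed sign between pairs on 1418866_at, so no direction could be read (adjusted p 0.432 and 0.971). Of 21 measured genes of vitamin D metabolism and response, 1 passed: Ank, a gene for a protein that exports pyrophosphate, fell from 1093 ± 59.3 to 842 ± 35.9 (log2 difference -0.37, adjusted p = 0.0252). The list's median was -0.27.

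Rxra did not pass on any of 3 probe sets. Probe set 1454773_at read 236, 242 and 221 in control and 193, 172 and 201 in AA, a separation of the groups with a log2 difference of -0.28 (95% confidence interval -0.53 to -0.03, adjusted p = 0.217). Probe set 1425762_a_at read 76.8, 88.7 and 62.7 against 83.4, 82.8 and 86.8, a log2 difference of 0.17 (adjusted p = 0.630), and 1430497_at lay below 2 on all arrays. Of 33 other nuclear receptor genes measured, a list that leaves out Nr4a2 and Nr4a3, which were counted among the PTH-responsive genes and rose, 3 fell and none rose, with a median of 0.08: the COUP-TF genes Nr2f2 (327 ± 51.6 to 189 ± 41.8, log2 difference -0.78, adjusted p = 0.00441) and Nr2f1 (-0.44), and Nr1d2 (-0.36, adjusted p = 0.0376 and 0.0687 without the block), the relative of Nr1d1. Of 26 measured coregulators and chaperones, which nuclear receptors recruit or fold with and whose median was -0.17, 1 passed, the corepressor component Tbl1x, which fell from 1531 ± 131 to 1029 ± 94.0 (-0.59, adjusted p = 0.0127).

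Esr1 did not pass either. Its brightest probe set, 1460591_at, read 126, 120 and 134 in control and 119, 101 and 114 in AA, a log2 difference of -0.16 (95% confidence interval -0.44 to 0.12, adjusted p = 0.569). Probe set 1435663_at read 24.9, 28.7 and 25.3 against 20.9, 33.7 and 31.9, with overlap. The dim 1421244_at went the other way, at 3.61, 3.37 and 1.69 against 6.67, 11.0 and 11.6 with no overlap, and a log2 difference of 1.72 ± 0.62 (SE, adjusted p = 0.183). Of 19 measured genes of estrogen metabolism and response, 2 rose and 2 fell, with a median of -0.10. Xbp1, a transcription factor of the secretory pathway, rose on all 4 of its probe sets, the brightest from 2535 ± 216 to 4368 ± 465 (0.69, adjusted p = 0.00108), and Gper1, a membrane receptor for estrogen, rose from 71.7 ± 12.8 to 133 ± 12.7 (0.91). The chemokine gene Cxcl12 fell from 783 ± 217 to 321 ± 29.1 (-1.23), and Igfbp4, which binds IGFs, fell on all 6 of its probe sets, by 0.40 on the brightest.

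As deposited, all 3 AA signals lay above all 3 control signals in 3 of the 27 probe sets and below them in 10, together 13, beside 11.0% of all probe sets above, 11.8% below and 22.8% in either direction. Probe sets of 1 gene are not independent, and the 10 came from 6 genes, with 2 each from Vdr, Nr3c1, Ghr and Rxra. The 10 included the probe sets of Vdr, Rxra and Esr1 described above that did not pass the test. Over the 10 pathway lists, with genes counted once, 251 of 280 genes were measured, of which 11 rose and 23 fell, with a median log2 difference of -0.09. Over all 18193 genes 4.06% rose and 3.83% fell, with a median of -0.02. The share of pathway genes that rose was about that of all genes, and the share that fell was above that of all genes. The lists were chosen with earlier results of these data known, so these shares are a description only. With 50 added to every signal, Leprot, Socs1, Gper1, Prkar2b, Gnaq, Hbegf, Wnt4, Nr2f1, Nr1d2 and Pdk4 no longer passed.

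**Figure D3:**
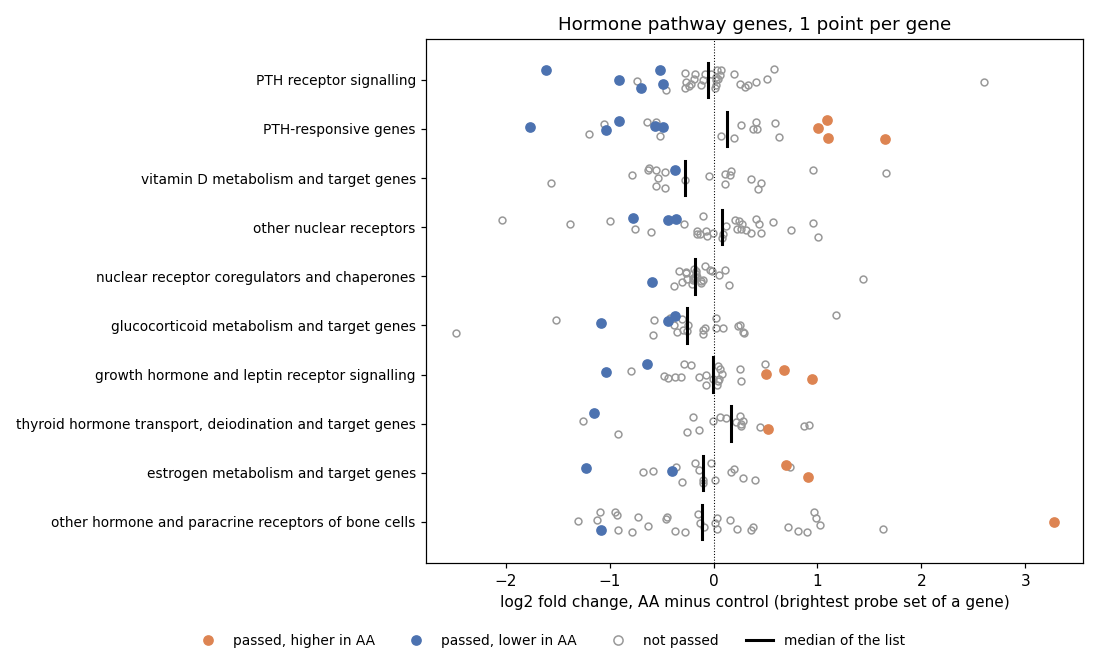
Log2 difference, AA minus control, of each measured gene of the 10 pathway lists by its brightest probe set, with filled points for genes that passed the test and a black bar at each list's median. The genes that passed lie on both sides in the PTH-responsive and growth hormone and leptin lists, and only left of 0 in the PTH receptor signalling, nuclear receptor, coregulator, vitamin D and glucocorticoid lists.

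For the 5 members whose brightest probe set passed, the pathway gene with the most similar profile over the 6 arrays was taken by Pearson's r of the log2 values. It was Igf2r for Pth1r (0.964), Igfbp4 for Ghr (0.989), Nr4a2 for Lepr (0.990), Ncoa2 for Nr3c1 (0.981) and Slc7a5 for Thra (0.981). The 6 arrays are 2 groups of 3, so these values carry any shift between the groups that the paired genes share. They also carry a shared order within the groups, and Pth1r fell from number 1 to number 3 in both. Igf2r (log2 difference 0.38, adjusted p = 0.0842) and Ncoa2 (-0.27, adjusted p = 0.126) did not pass. The values of r are given as a description.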

How the data were processed

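RNA of MC3T3-E1 cells was hybridized to 6 arrays, 1 per culture. The deposited values are linear intensity values, 1 per probe set, which the authors made with MAS5 per the labels; the 2% trimmed mean was 150 on every array. No detection calls and no genome build came with them. The study's methods describe GC-RMA and quantile normalization, which these values do not carry; the effect of GC-RMA was not tested. For arrays the number of replicates limits the precision.

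Signals were put on the log2 scale without a floor, which enlarges differences between dim signals, and quantile normalized. limma 3.58.1 in R 4.3.3 fitted condition with the replicate number as a block, after the paired tests of the study's methods, with a prior spread that follows signal (2 residual and 6.178 prior degrees of freedom). P-values were adjusted over 45037 probe sets, leaving out 64 control probe sets, at 0.05. Genes came from the platform annotation: 34945 probe sets had 1 symbol, 932 several and 9160 none. A gene outside the members was represented by its brightest probe set with that symbol alone. Other probe sets of such a gene did not always pass with it, and some passed where the brightest did not.

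On simulated arrays (45037 probe sets, 200 changed, 10 draws), the fit recovered 49.6% of changes of 1.5-fold, 81.3% at 2-fold and 95.3% at 4-fold above the median signal, and 12.2% of calls (5.56% to 16.2%) were false when each probe set kept its own estimated spread, against 5.04% when spread followed signal alone, so the adjusted p can be too small.

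The members and all lists were chosen with earlier results of these data known. Named were every member probe set, for each list up to 4 genes that passed in each direction, taken by p, and the most similar gene for members that passed; Gnas, Stat5a, Stat5b, Fkbp5, Tsc22d3 and Nr1d1 were named after their values were seen. Alternatives were no block, other scaling, 50 added, a filter on dim probe sets, no signal trend, the methods' paired t-test and thresholds, leaving out replicate numbers with the block or single arrays without it, and averaging a gene's probe sets, which for the members was chosen after seeing the data.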

Additional observations from a re-analysis of the deposited data

How the results depend on the processing

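The counts in the order members higher, members lower, pathway genes higher and pathway genes lower were 3, 4, 11 and 23. They were 2, 4, 9 and 22 without the replicate block, 3, 4, 12 and 26 as deposited, 3, 3, 11 and 25 under median centring, 3, 2, 8 and 16 with 50 added to every signal, and 2, 4, 14 and 32 among probe sets above the median signal. With no signal trend and by the methods' t-test after adjustment all 4 counts were 0 (at an unadjusted p under 0.05, 2587 and 2616 probe sets of the whole array in the first and 2612 and 2827 in the second). The methods' t-test at its own unadjusted p gave 0, 1, 5 and 11, with Ghr the member that passed, and their p and fold thresholds on limma gave 3, 1, 10 and 16. Averaging all probe sets of a gene gave 8 higher and 13 lower pathway genes. Leaving out a replicate number (with the block) or an array (without it, so that 2 choices changed at once) gave 0 to 3 members higher, 1 to 4 lower, 5 to 13 pathway genes higher and 8 to 24 lower.

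The replicate numbers did not clearly pair the arrays. Deviations from the group means of same-numbered arrays correlated at 0.0165, 0.0037 and 0.0099, and at 0.182, 0.0251 and 0.0921 above the median signal. Differently numbered arrays gave -0.0165 to 0.00684, and -0.143 to 0.0513 above the median signal. Numbers 1 and 3 exceeded all of these, and number 2 did not. The block is therefore kept only as the methods' design, and a call that needs it, such as Pth1r (adjusted p = 0.118 without it), rests on that choice.

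The direction of each member's brightest probe set was the same under every alternative that gave a value (Cyp24a1 had none above the median signal) except averaging a gene over its probe sets, which turned Nr3c1 to 0.00 (0.0019) and Esr1 to 0.55. With 3 arrays a group, a call near the threshold, as for Nr3c1 and Thra, cannot be placed firmly on either side, and for the dim Lepr probe sets the size of the difference depends on what is added before the log. The cause of the changes between settings was not tested.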

Other observations

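Of 36 other hormone and paracrine receptor genes of bone cells, 32 were measured, 10 of them above the median signal, and 1 rose and 1 fell, with a median log2 difference of -0.11. Ramp1, whose protein joins the calcitonin receptor-like receptor to form a receptor for CGRP, read 153, 47.5 and 42.3 in control and 1337, 582 and 346 in AA. Every AA array was above every control array, and the log2 difference was 3.27 ± 0.15 (SE, n = 3 per group, adjusted p = 5.3e-05; 0.0107 without the block), on 1 of its 3 probe sets. Npr3, the clearance receptor of natriuretic peptides, read 89.3, 192 and 188 in control and 50.7, 75.1 and 84.7 in AA, a log2 difference of -1.08 (adjusted p = 0.00555, and 0.0719 without the block).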
